A study of Ettlia oleoabundans with 10 samples.

Results

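A set of 86 of 10122 scaffold families of Ettlia oleoabundans, a green alga that stores oil, was raised in the cultures with 0 and 0.38 mM nitrate and not, by the same margin, in the culture with 0.75 mM. A scaffold family is the unit of the deposited table, with a numeric identifier and no gene name, so the members are described by their levels and no function is given to any of them. The families were chosen on the scale log2(value + 1), where the value is the authors' expression level, whose unit is not stated. A member had to lie at least 1 log2 unit, which is 2-fold on this scale, above the highest of 3 libraries at both 0 and 0.38 mM nitrate. These 3 are the libraries of 1.5 mM nitrate, 3 mM nitrate and the control, called replete here, and their highest value is called the replete maximum. A member also had to be less than 1 unit above the replete maximum at 0.75 mM, and families at least 1 unit above it at both 300 and 600 mM NaCl were left out.

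Cultures of strain UTEX 1185 started from 1000000 cells per ml and grew photoautotrophically for 6 days at 25 °C in constant light. The groups were 0, 0.38, 0.75, 1.5 and 3 mM nitrate, the control with 9 mM nitrate and 42 mM NaCl, and 75, 150, 300 and 600 mM NaCl. Each was 1 library of poly(A)-selected RNA, so the values have no replicate error and the differences no test. The labels give no NaCl concentration for the nitrate cultures other than the control, no nitrate concentration for the other NaCl cultures, and no measure of how much nitrate remained at harvest.

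Nitrate is taken up by algal cells through membrane transporters, reduced to nitrite and then to ammonium, and built into glutamine and glutamate. Green algae that run out of nitrogen stop dividing, turn over photosynthetic proteins, draw on other nitrogen sources and store carbon as starch and triacylglycerol, the oil this species is known for. Salt imposes a different load, osmotic and ionic, which algal cells meet with compatible solutes and ion transport. Which of these processes the families belong to cannot be read from the table.

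Library totals of the deposited values ran from 362924 (0.38 mM nitrate) to 695913 (300 mM NaCl), and 380 to 1263 families per library were listed at 0. The read depth behind the values is unknown. Over all families the median log2 ratio to the control with 75, 150, 300 and 600 mM NaCl was 0.21, 0.27, 0.22 and 0.12, and without nitrate it was 0.12. In the remaining nitrate libraries this median stayed between 0 and 0.06. Titles of the 0.38 mM nitrate library and of the 150 mM NaCl library hold a code beginning with RAA, which the other 8 do not, and its meaning was not given in the sources used here. Those libraries also had the most families listed at 0, with 1263 and 1247, beside 380 to 1021 in the other 8.

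Fewer families were raised at both of the lowest nitrate levels than at either of them alone. At 0 mM, 890 families (8.79% of all) were at least 1 log2 unit above the replete maximum, and at 0.38 mM, 584 (5.77%). In 224 families both held, leaving 666 families raised at 0 mM alone and 360 at 0.38 mM alone. The 224 are 25.2% of the first list, beside the 5.77% of all families raised at 0.38 mM. They are 38.4% of the second, beside the 8.79% of all families raised at 0 mM. Of the 224, 99 were also raised at 0.75 mM and 125 were not. The salt clause removed 39 of the 125, and the remaining 86 are 0.85% of all families. These counts describe the choice of members and are not findings about them.

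**Figure D1:**
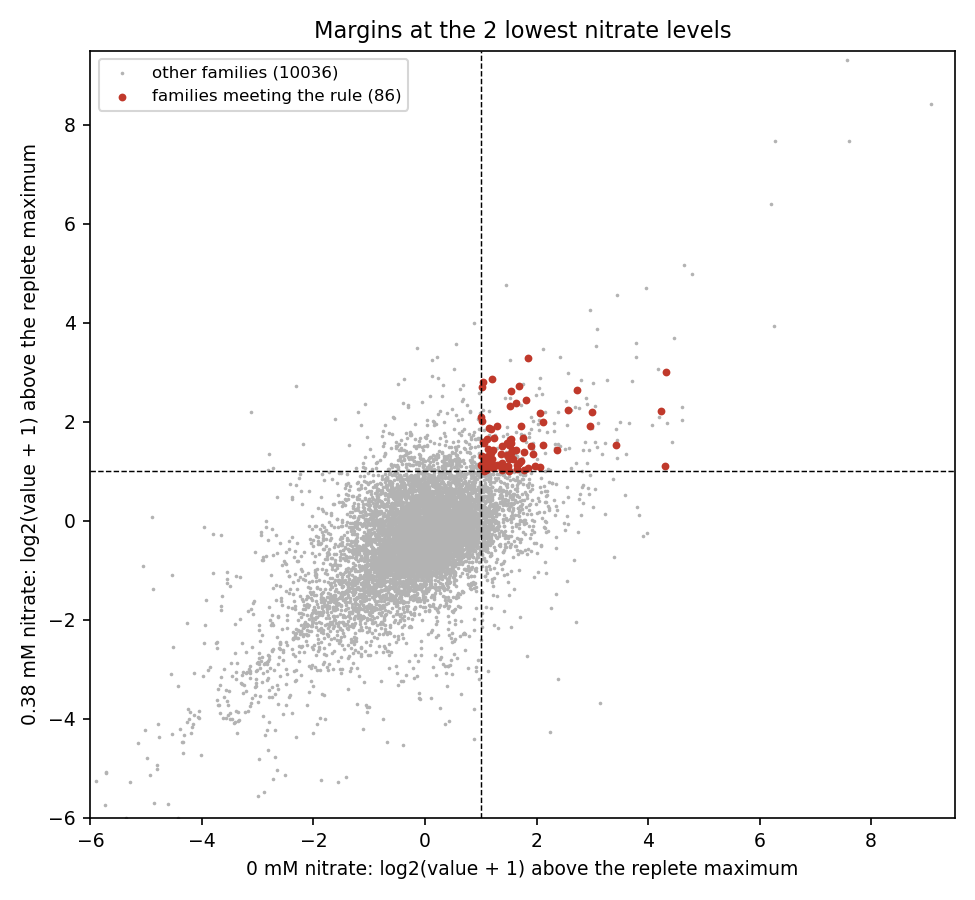
Each point is a family, with its log2(value + 1) above the replete maximum at 0 mM nitrate on the horizontal axis and at 0.38 mM on the vertical axis; dashed lines mark the margin of 1, and 29 families lie outside the plotted range. The 86 chosen families (red) fill the corner above both lines, most of them close to it, and grey points in that corner are families that failed the clause for 0.75 mM nitrate or for NaCl.

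Most members were only a little beyond the 2-fold margin. Taking the lower of the 0 and 0.38 mM values, the margin above the replete maximum had a median of 1.18 log2 units and ran from 1.00 to 3.00. It was under 1.5 in 63 members, from 1.5 to under 2 in 17, and 2 or more in 6. The members' own spread over the 3 replete libraries, the highest minus the lowest on the log2 scale, had a median of 0.34 and reached 1.05, against a median of 0.33 over all families. Just inside the margin lay 7934_c0 and 2547_c0, at 1.003 each, and just outside lay 621_c0 at 0.998 and 3868_c0 at 0.992, where families averaging under 5 were passed over. Family 621_c0, which the rule leaves out, had values of 153.55 at 0 mM and 178.78 at 0.38 mM nitrate against 68.95 to 76.36 in the replete libraries.

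The members were of middling abundance. In the control their median value was 10.76, with a range from 0 to 98, where the median of all families was 14.81. Their medians for 0, 0.38, 0.75, 1.5 and 3 mM nitrate were 35.96, 35.58, 20.23, 9.29 and 10.43. Together they held 0.789%, 1.31% and 0.495% of the library totals of 0, 0.38 and 0.75 mM, and 0.257% to 0.306% of those of the replete libraries. Averaged over the 10 libraries, 68 members reached 5 and 6 stayed under 1.

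The member with the highest levels, 2303_c0, was far higher at 0.38 mM than at any other condition. Its values were 191.88, 659.49 and 177.88 with 0, 0.38 and 0.75 mM nitrate, 72.26 and 57.5 with 1.5 and 3 mM, and 93.31 in the control. In the NaCl cultures, from 75 to 600 mM, it had 66.86, 171.31, 9.72 and 7.94. The 3 low-nitrate libraries all lay above the 3 replete ones, and the NaCl libraries fell on both sides of the control, with the lowest values of all 10 at 300 and 600 mM.

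Family 1904_c0 was among the members raised under low nitrate and not in any NaCl library. Its values for 0, 0.38 and 0.75 mM were 255.99, 281.07 and 152.83, against 84.02, 90.95 and 98 at 1.5, 3 and 9 mM. At 75, 150, 300 and 600 mM NaCl its values were 77.57, 83.56, 61.96 and 54.49, all below the control. Family 1652_c0 had a similar nitrate profile, with 198.86, 188.4 and 112.16 at 0, 0.38 and 0.75 mM and 58.3, 46.06 and 49.36 at 1.5, 3 and 9 mM. Its NaCl values, 57.88, 58.83, 83.98 and 58.14 in order of concentration, were all somewhat above the control and well below the values at 0 and 0.38 mM nitrate.

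Family 1152_c0 differed from these in its NaCl values. With 0, 0.38 and 0.75 mM nitrate it had 296.17, 195.04 and 74.98, beside 60.08, 76.44 and 94.24 in the replete libraries. Its highest value of all 10 libraries was 316.92 at 150 mM NaCl, beside 132.18, 66.01 and 70.48 for 75, 300 and 600 mM. At 0.75 mM nitrate it lay within the replete range.

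Families 280_c0 and 1790_c0 complete the 6 members with the highest levels. Family 280_c0 had 154.42, 175.31 and 115.48 at 0, 0.38 and 0.75 mM nitrate, 52.07, 51.62 and 69.88 in the replete libraries, and 76.72, 107.6, 73.84 and 104.42 from 75 to 600 mM NaCl. Family 1790_c0 had 157.44, 104.5 and 81.15 at the 3 low nitrate levels, 34.25, 36.21 and 40.26 in the replete libraries, and 56.62, 65.08, 76.18 and 66.91 from 75 to 600 mM NaCl. In both, all NaCl libraries were above the control and below the values at 0 mM nitrate.

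**Figure D2:**
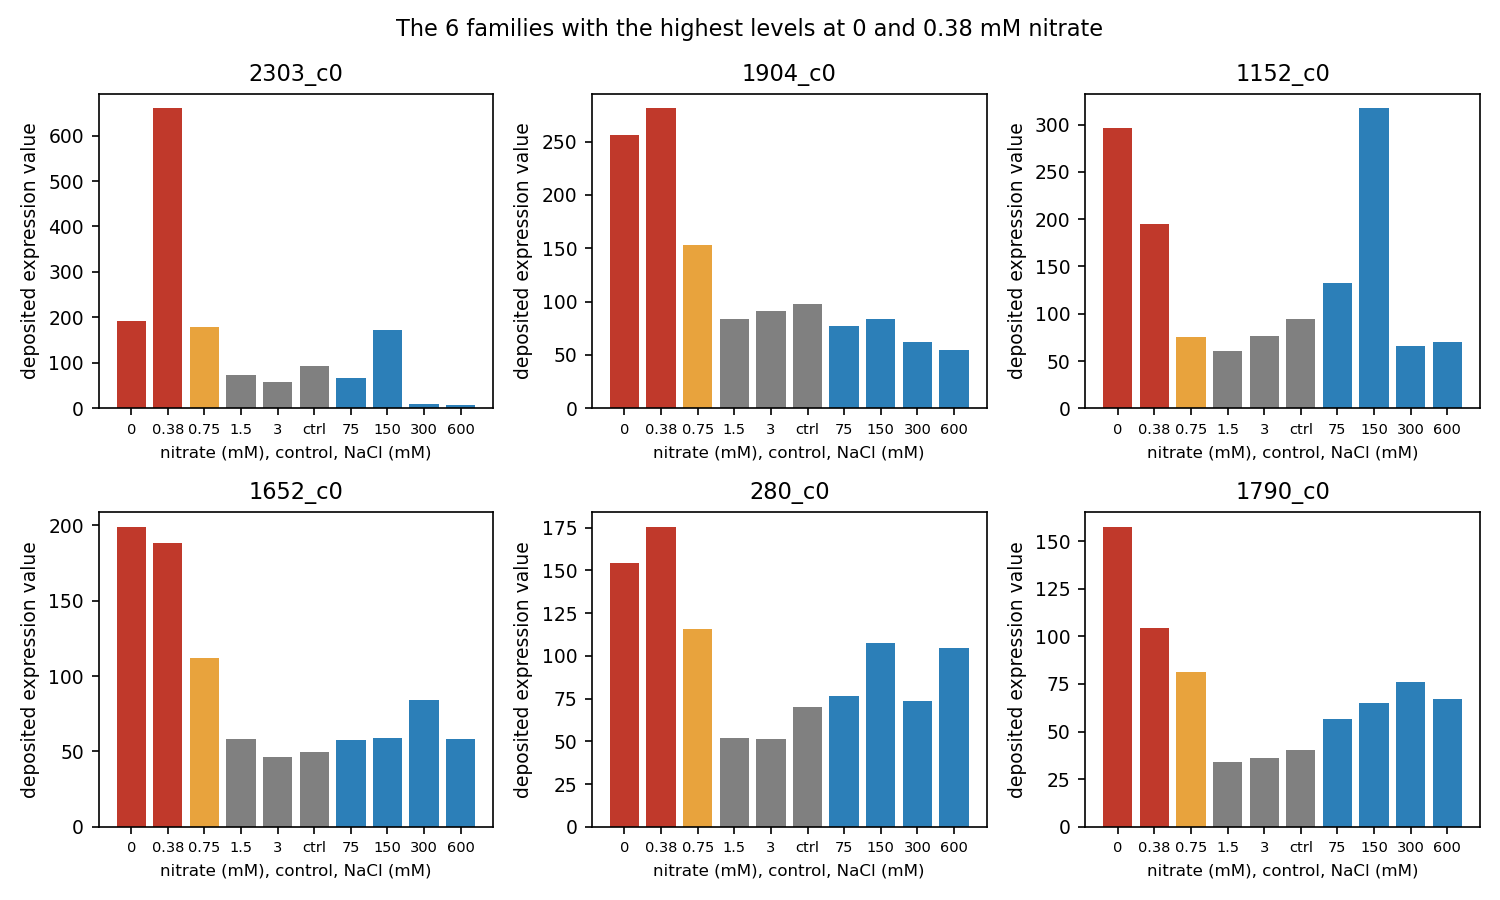
Bars give the deposited expression value, on a linear axis starting at 0 and scaled separately in each panel, of the 6 members with the highest levels, in the 10 libraries (red, 0 and 0.38 mM nitrate; orange, 0.75 mM; grey, 1.5 mM, 3 mM and control; blue, NaCl). The red bars stand above the grey ones in every panel by the rule; the panels differ in their blue bars, with 316.92 at 150 mM NaCl in 1152_c0 and 7.94 at 600 mM in 2303_c0.

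The 6 members with the largest margins had values between 0.06 and 9.31 at 0.75 mM nitrate and in the replete libraries, and differed from each other in salt. Family 10913_c0 had the largest, 3.00 log2 units. Its values were 36.57, 14.15 and 1.83 at 0, 0.38 and 0.75 mM nitrate, 0.84, 0.89 and 0.33 in the replete libraries, and 0.57, 14.08, 4.88 and 1.96 from 75 to 600 mM NaCl. Its value at 150 mM NaCl thus equalled that at 0.38 mM nitrate to within 0.1. Family 22465_c0 followed with a margin of 2.63, and had 8.03 and 7.51 at 0 and 0.38 mM against 0.06 to 0.46 in the other nitrate libraries and the control.

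Family 13119_c0, with a margin of 2.24, was raised only in the cultures with 0 and 0.38 mM nitrate. With 0, 0.38 and 0.75 mM nitrate it had 21.42, 17.05 and 2.59, beside 2.81, 2.33 and 1.35 in the replete libraries, and 1.57, 1.27, 2.19 and 0 from 75 to 600 mM NaCl. Every one of the other 8 libraries lay below 3. Family 7727_c0, with a margin of 2.06, had 32.58 and 35.75 at 0 and 0.38 mM, 9.31 at 0.75 mM, and 5.59 to 7.07 in the replete libraries, and its NaCl values were 8.13, 16.82, 5.74 and 6.7.

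Family 15261_c0 (margin 2.20) had 10.91, 5.85 and 1.43 from 0 to 0.75 mM nitrate and 0.39 to 0.49 in the replete libraries, and it was highest, at 19.8, with 600 mM NaCl. Family 11305_c0 (margin 2.23) had 33.75, 7.61 and 2.09 at 0, 0.38 and 0.75 mM nitrate, 0.48 to 0.84 in the replete libraries, and 2.24, 2.89, 0.43 and 0.21 from 75 to 600 mM NaCl.

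The members did not share an order between 0 and 0.38 mM nitrate. In 45 members the value was higher at 0 mM, and in 41 it was higher at 0.38 mM. The difference was under 1 log2 unit in 73. The median of 0 mM minus 0.38 mM was 0.05 log2 units in the members and 0.22 over all families. Family 12936_c0 was among the 8 members that 0.38 mM held at least 2-fold higher (7.64% of all families), with 34.45 there against 10.16 at 0 mM and 3.07 to 3.87 in the replete libraries. Likewise, 901_c0 had 27.12 and 7.76 in the same order, against 1.74 to 3.3. Family 6531_c0 was among the 5 members that 0 mM held at least 2-fold higher (15.9% of all families), with 49.37 there, 12.55 in the library of 0.38 mM and 2.14 to 3.67 in the replete libraries. Both libraries were used by the rule and each is a single culture, so the order in a member rests on 1 value against 1.

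At 0.75 mM nitrate the members were in general between the replete and the lowest-nitrate cultures rather than at the replete level. In 73 of 86 members (84.9%) the 0.75 mM value lay above all 3 replete libraries, where 39.4% of all families did, in 10 within their range and in 3 below it. The median was 0.49 log2 units above the replete maximum, with quartiles of 0.23 and 0.74, beside a median of -0.05 over all families. The rule used the 0.75 mM library and the replete maximum and fixes the upper limit of 1, so these values are a description. Of each member's log2 rise from the replete mean to the mean of 0 and 0.38 mM, a median of 40.5% was present at 0.75 mM. Against the control alone, 13 members were at least 2-fold higher at 0.75 mM (6.9% of all families were), which the rule allows because the control is not always the replete maximum.

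Near the upper limit stood 1790_c0, 2444_c0 and 3297_c0. Family 2444_c0 had 115.64, 81.07 and 69.57 at 0, 0.38 and 0.75 mM nitrate and 32.01 to 34.46 in the replete libraries, so 0.75 mM was nearer to 0.38 mM than to the replete cultures. Family 3297_c0 had 104.62, 79.74 and 73.79, with 30.58 to 37.16 in the replete libraries. At the other end, 8753_c0 had 19.08, 9.22 and 1.61 in order of nitrate, the last of which is below its replete values of 2.81, 3.69 and 3.81. In 7934_c0 the value at 0.75 mM was 5.58, within a replete range of 4.27 to 9.42, beside 19.88 and 21.74 at 0 and 0.38 mM.

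The libraries of 75 and 150 mM NaCl were not used to choose the members, and they differed from each other. The 150 mM library shares its RAA title code with that of 0.38 mM nitrate, on which the members were chosen, and the 75 mM library does not. The part of this shared code in the values at 150 mM was not tested. At 150 mM, 37 of 86 members (43.0%) were at least 2-fold above the control, where 15.9% of all families were, and 1 was at least 2-fold below it (7.03% of all families). For 75 mM, 4 members (4.65%) were as far above the control, where 6.92% of all families were, and 1 was as far below it (2.95%). The member below the control in both was 12922_c0, named after its values were seen. It had 10.91, 23.41 and 6.25 at the 3 low nitrate levels, 2.68, 2.55 and 1.55 in the replete libraries, and 0, 0.16, 0.12 and 1.05 from 75 to 600 mM NaCl. The median log2 ratio of the members to the control was 0.87 at 150 mM, with 0.27 over all families, and 0.35 at 75 mM, with 0.21 over all families. These are differences between single libraries. The control is also one of the libraries that define the replete maximum, so a member's low control value is partly a product of the choice.

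The result at 150 mM depended on the scaling of the libraries and on the pseudocount, the number added before the logarithm. Median-ratio scaling divides each library by its median ratio to the geometric mean of all libraries, over families above 0 in each. With it, 19 members (22.1%) were at least 2-fold higher than in the control, beside 8.43% of all families. The median log2 ratio was then 0.54 in the members and 0 over all families. With a pseudocount of 5 the count was 17 (19.8%), beside 9.07% of all families, and with a pseudocount of 0.1 it was 44 (51.2%), beside 19.5%. In each of these settings the members' share was above that of all families. The members were the 86 chosen on the unscaled values with a pseudocount of 1. Only 64 of them met the rule with median-ratio scaling, and 38 with a pseudocount of 5.

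**Figure D3:**
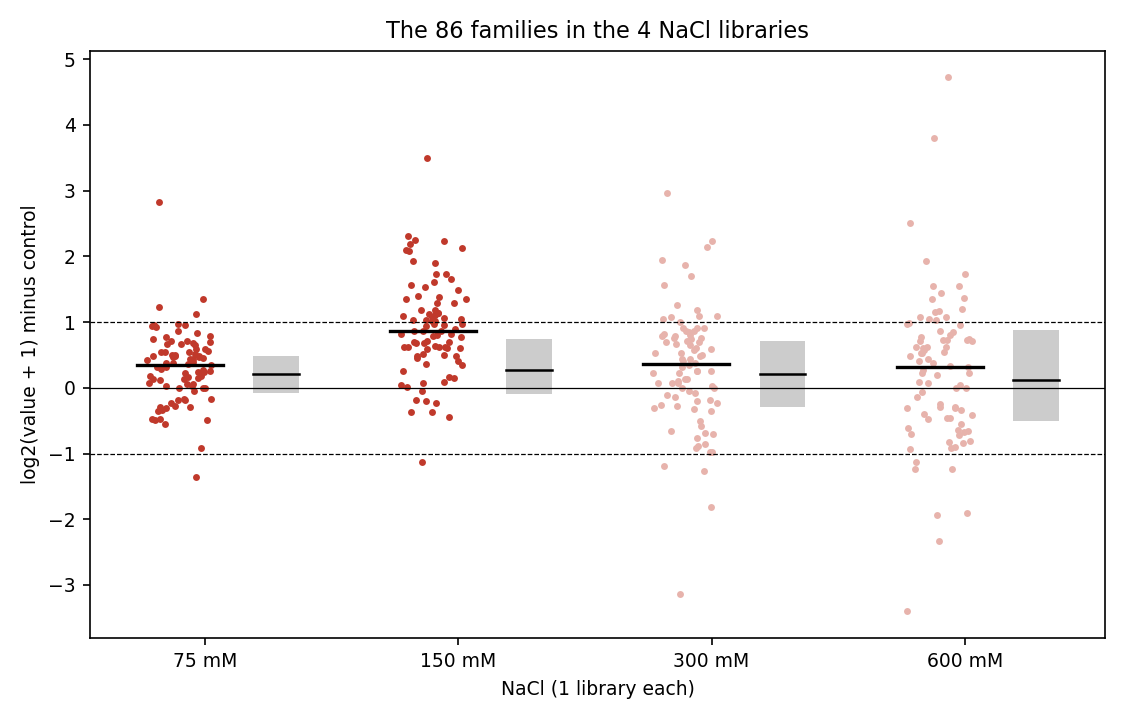
Points are the 86 members' log2(value + 1) minus that of the control in each NaCl library, with the members' median as a wide bar; grey boxes give the quartiles of all 10122 families and their median. Dark points mark the libraries that the rule did not use: at 150 mM the members' median was 0.87 and at 75 mM it was 0.35, and pale points mark 300 and 600 mM, where the rule removed families raised in both. The 150 mM library shares its RAA title code with that of 0.38 mM nitrate, which the rule used.

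The name under which these families were grouped, raised only by deep nitrate starvation, holds for part of them. In 44 of 86 members no NaCl library was at least 1 log2 unit above the replete maximum, and in 42 (48.8%) at least 1 was, where 27.8% of all families had such a library. At 150 mM NaCl, 33 members passed this margin (11.7% of all families did). The counts for 600, 300 and 75 mM were 11 (20.1% of all families), 9 (11.2%) and 2 (4.93%). The shares at 300 and 600 mM are limited by the salt clause. The replete maximum also took part in choosing the members, so a low reference is partly a product of the choice. In 22 members (25.6%) 150 mM was the only such NaCl library, as in 3.87% of all families. It was 300 mM alone in 6 (1.67% of all families) and 600 mM alone in 3 (8.8%). The other 11 (12.8%) passed it in 2 or more, 8 of them at 150 and 600 mM, and 12.9% of all families did so. The 39 families that the salt clause removed had all passed it in 2 or more. The shares of members with 1 such library and with 2 or more are therefore partly fixed by the choice, and are a description.

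Family 2537_c0 was among those with the largest rise at 150 mM. Its values were 109.48 and 84.02 at 0 and 0.38 mM nitrate, 28.42 at 0.75 mM and 26.73, 28.7 and 20.81 in the replete libraries. From 75 to 600 mM NaCl it had 41.35, 107.16, 45.42 and 12.19, so its level at 150 mM NaCl was close to that without nitrate, and at 600 mM it was below the control. Family 901_c0 had 1.43, 11.99, 4 and 4.63 in the NaCl series, with the peak again at 150 mM, and 7934_c0 had 14.27, 47.79, 11.95 and 11.24. At 150 mM, 7934_c0 was above its own values at 0 and 0.38 mM nitrate.

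Family 8053_c0 was the member with the largest rise at 75 mM NaCl, 2.83 log2 units above the control. It had 18.65 and 16.49 at 0 and 0.38 mM nitrate, 10.32 at 0.75 mM and 5.15 to 7.02 in the replete libraries, but 42.72, 26.92, 47.18 and 11.76 from 75 to 600 mM NaCl. Its values at 75, 150 and 300 mM NaCl were thus above every nitrate library. It stayed among the members because at 600 mM it was less than 1 log2 unit above the replete maximum. The other 3 members at least 2-fold above the control there were 11305_c0, 17303_c0 and 19668_c0, all low, with 2.24, 3.03 and 4.18 at 75 mM against 0.48, 0.71 and 1.02 in the control. Families 17303_c0 and 19668_c0 were named after their values were seen. Families 6531_c0 and 324_c0, at 0.97 and 0.96 log2 units above the control, were short of 2-fold on the log2(value + 1) scale.

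Some members were lower in salt than in the control, by any amount. With 75, 150, 300 and 600 mM NaCl these were 20, 8, 27 and 34 of the 86. Their shares of 23.3%, 9.30%, 31.4% and 39.5% stand beside 30.4%, 28.5%, 36.9% and 44.4% of all families. Among members with a value of at least 5 in one of the libraries compared, 1240_c0 was lowest against the control at 150 mM NaCl, with a log2 ratio of -0.44. Its values were 74.75, 71.97 and 41.4 at 0, 0.38 and 0.75 mM nitrate, 28.94, 31.76 and 35.2 in the replete libraries, and 31.04, 25.61, 18.6 and 8.68 from 75 to 600 mM NaCl, falling with each step. Family 5075_c2 was lowest at 75 mM, with 8.41 against 16.71 in the control and a log2 ratio of -0.91, and had 36.48 and 38.6 at 0 and 0.38 mM nitrate. At 600 mM, 6 members (6.98%) were at least 1 log2 unit below the lowest replete value, beside 9.64% of all families. They were 2303_c0, 1240_c0, 13119_c0, 2547_c0, 3205_c0 and 10050_c0, of which 3205_c0 and 10050_c0 were named after their values were seen. Family 2547_c0 had 117.33 and 82.55 with 0 and 0.38 mM nitrate against 9.24 with 600 mM NaCl. The corresponding values were 107.1, 114.97 and 6.78 for 3205_c0 and 20.59, 36.83 and 1.81 for 10050_c0.

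**Figure D4:**
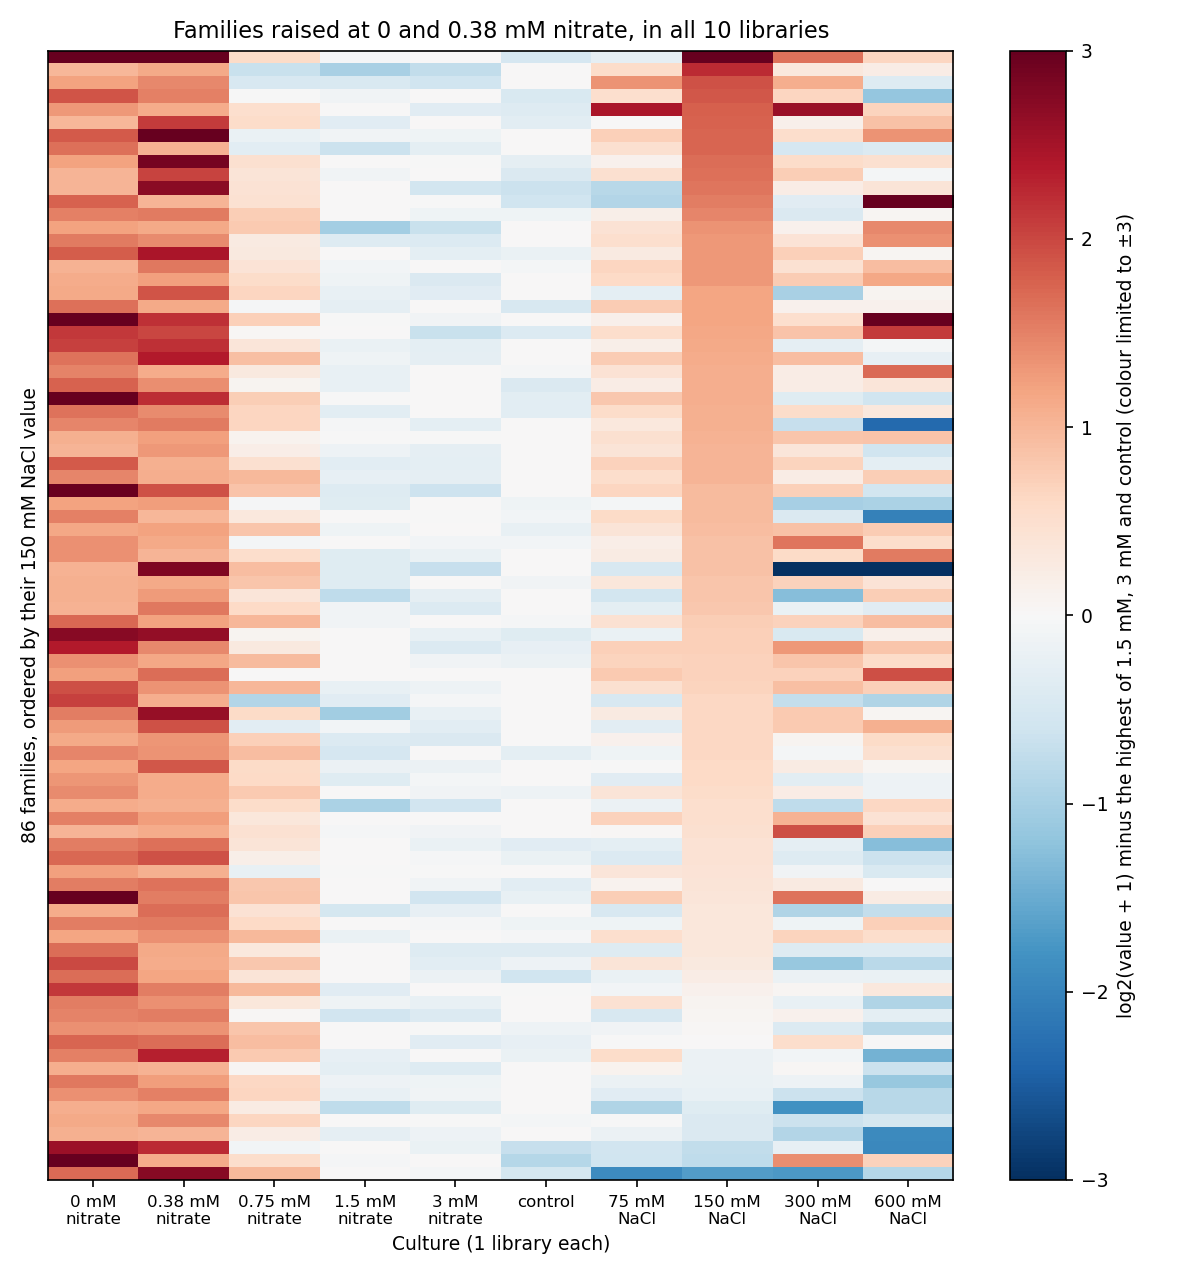
Each row is 1 of the 86 members and each column 1 library; colour gives log2(value + 1) minus the replete maximum, red above and blue below, and rows are ordered by the 150 mM NaCl column. The columns of 0 and 0.38 mM nitrate are red throughout by the rule, the 0.75 mM column is mostly pale red (above all 3 replete libraries in 73 rows), and the 150 mM NaCl column is redder than its neighbours, with 33 rows at least 1 above the replete maximum.

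In 51 of 86 members 150 mM was the highest of the 4 NaCl libraries above the control's concentration, as in 32.9% of all families. The rule used 300 and 600 mM and left out the 39 families raised at both, so which NaCl library is highest is partly fixed by the choice of members, and so is the difference between 150 and 300 mM given next. In 22 members (25.6%) 150 mM lay at least 1 log2 unit above the mean of 75 and 300 mM, where 9.46% of all families did, and in 1 member it lay as far below (6.04%). The 150 mM library shares its RAA code with that of 0.38 mM nitrate, on which the members were chosen. Of the 360 families raised at 0.38 mM alone, 142 (39.4%) were at least 1 log2 unit above the replete maximum at 150 mM NaCl. At each of 75 and 300 mM there were 26 (7.22%), and at 600 mM 78 (21.7%). Of the 666 families raised at 0 mM alone, the counts for 150, 75, 300 and 600 mM were 205 (30.8%), 125 (18.8%), 198 (29.7%) and 240 (36.0%). Over all families the shares in the same order were 11.7%, 4.93%, 11.2% and 20.1%. The part of the title code in the members' values at 150 mM was not tested.

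Comparisons between libraries of like code were also made. Between the 2 RAA libraries, 77 members (89.5%) were higher at 0.38 mM nitrate than at 150 mM NaCl, where 24.3% of all families were. The difference was at least 1 log2 unit in 35 members (4.34% of all families) and its median was 0.73, beside -0.31 over all families. Between the library of 0 mM nitrate and that of 75 mM NaCl, neither of which has an RAA code, 84 members (97.7%) were higher at 0 mM, as were 44.8% of all families. The difference was at least 1 log2 unit in 62 members (6.93% of all families), and its median was 1.29, beside -0.04 over all families. In both comparisons the rule had chosen the nitrate side as high, so the counts are a description.

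A pair of neighbouring groups of families was set beside them at 75 and 150 mM NaCl, libraries that the choice of neither group used. The control, to which the ratios are taken, did take part in choosing every group, through the replete maximum. So did the library of 0.38 mM nitrate, whose RAA title code the 150 mM NaCl library shares. The 70 families that met the same nitrate and salt clauses but were raised at 0.75 mM as well had 19 (27.1%) at least 2-fold above the control with 150 mM and 12 (17.1%) with 75 mM. Their median log2 ratios were 0.69 at 150 mM and 0.34 at 75 mM, against 0.87 and 0.35 in the 86. The 39 families that failed only the salt clause had 35 (89.7%) and 28 (71.8%) at this distance, with medians of 2.04 and 1.54. The 39 were set apart because the salt clause found them raised in higher NaCl, and the 86 and the 70 had such families removed. The higher shares of the 39 are therefore partly fixed by the choice, and no conclusion is drawn from them. With 1 library per condition the differences between the groups have no test.

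**Figure D5:**
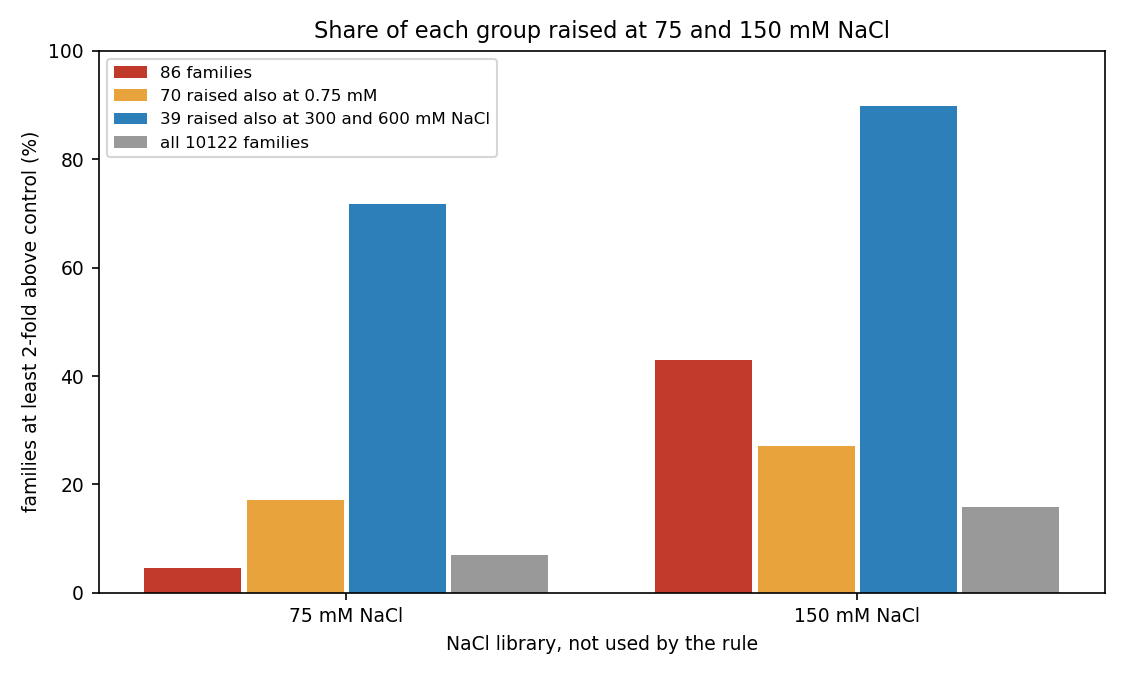
Bars give the percentage of families at least 2-fold above the control on the log2(value + 1) scale at 75 and 150 mM NaCl, for the 86 members, the 70 families raised also at 0.75 mM nitrate, the 39 raised also at 300 and 600 mM NaCl, and all 10122 families. The 86 stand at 4.65% and 43.0%, beside 6.92% and 15.9% of all families. The 150 mM library shares its RAA title code with that of 0.38 mM nitrate, which the rule used.

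The identifiers gave little that the members shared. No member had its number, the digits before the suffix, in common with another member. A suffix other than c0 was found in 4 members (4.65%), and in 4.71% of all families. Numbers shared with another family of the table were found for 5 members (5.81%) and for 4.92% of all families. The 5 together had 6 such relatives, and 0 of the 6 were at least 1 log2 unit above the replete maximum at 0 or at 0.38 mM nitrate. Family 324_c0, for example, had 149.07 and 77.07 at 0 and 0.38 mM nitrate against 20.87 to 27.92 in the replete libraries, while 324_c1 had 692.77 and 961.74 against 650.67 to 714.13. Family 947_c1 had 32.23 and 90.46 against 7.51 to 8.28, and 947_c0 had 36.75 and 37.53 against 32.83 to 46.46. How families that share a number are related was not stated in the labels or the file.

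In 7 members at least 1 replete library was listed at 0, and 2 of them, 44042_c0 and 60516_c0, were listed at 0 in all 3. Family 44042_c0 had 1.36 and 2.2 with 0 and 0.38 mM nitrate and was highest, at 2.8, with 600 mM NaCl. Family 60516_c0 had 1.84 and 1.38. The highest control value among the 7 was 0.49. Of the 7, 6 had no value above 4 in any library. The exception, 15583_c0, had 34.54 and 2.91 with 0 and 0.38 mM nitrate, and 0, 0.75 and 0.8 in the replete libraries. These families were named after their values were seen, and no fold change is given for them.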

How the data were processed

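Per the labels' protocols, Illumina libraries were made from poly(A)-selected RNA of 10 cultures, 1 per condition. The authors deposited 1 table of 10122 scaffold families by 10 libraries. Its values were recorded as signal: the deposited signal is an expression level that is never negative, has 2 decimals and sums to a different total in each library, so it is not a whole-number count. How the authors scaled it, for length or depth, was not given in the sources used here, and no read depth, counting interval or detection limit could be computed. Tools listed in the submitters' processing notes, without roles, are edgeR 3.0.8, RSEM 1.2.0 and Bowtie 0.12.8. The column headed 0.375 mM nitrate was matched to the label 0.38 mM. All per-library columns were used.

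From these values log2(value + 1) was computed (Python 3.11.15, numpy 2.4.6, pandas 2.3.3) and the rule was applied without a filter on low values. The scale understates changes of families with low values. The rule used 8 of the 10 libraries. With 1 library per condition no test was possible, so counts at least 2-fold from the control and medians are given beside the same over all families. The families and the way of naming them were chosen with earlier results of these data known. Named families were those with the highest levels, the largest margins, the values nearest the margin, and the extremes at 0.75 mM nitrate, between 0 and 0.38 mM, and at 75 and 150 mM NaCl. Families mentioned outside these criteria are described as such or given as relatives. Lists of genes for nitrogen assimilation, lipid and starch synthesis, photosynthesis and stress could not be matched to the identifiers and were not used. The code of the selection was run on simulated families with known patterns, as a check that it applies the rule. That run gave no measure of how far the members' values would repeat. Alternatives were other pseudocounts, scalings, filters, margins, references and libraries left out.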

Additional observations from a re-analysis of the deposited data

How the results depend on the processing

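The number of families meeting the rule was 86. It was 53 with a pseudocount of 5, 23 with a margin of 1.5, 547 without the 0.38 mM library and 378 without the 0 mM library, so either library alone chose a much longer list. Settings chosen after the data were seen gave 35 families when 0.38 mM nitrate also had to be at least 1 above 150 mM NaCl, and 44 when no NaCl library could be raised. The other settings gave 66 to 125 families. Membership moved more than the count: 64 of the 86 families were kept with median-ratio scaling (89 families), 52 with equal library totals (109), 73 with a pseudocount of 0.1 (109) and 38 with a pseudocount of 5.

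In the counts that follow the 86 families were kept as first chosen. At 150 mM NaCl, 37 members (43.0%, beside 15.9% of all families) were at least 2-fold above the control. The count was 17 with a pseudocount of 5 (19.8%, beside 9.07% of all families) and 19 with median-ratio scaling (22.1%, beside 8.43%). It was 22 with equal totals (25.6%, beside 9.26%) and 44 with a pseudocount of 0.1 (51.2%, beside 19.5%). With the replete mean in place of the control it was 41 (47.7%, beside 16.8%), and with the replete maximum 33 (38.4%, beside 11.7%). Against the mean of 75 and 300 mM it was 22 (25.6%, beside 9.46%), and 4 (4.65%, beside 6.92%) at 75 mM in its place. The latter pair was added after the data were seen. The median log2 ratio, 0.87, became 1.02 and 0.67 with pseudocounts of 0.1 and 5, 0.54 with median-ratio scaling, 0.60 with equal totals, and 0.98 and 0.77 against the replete mean and maximum. At 75 mM the count of 4 became 10 (11.6%, beside 14.8% of all families) and 1 (1.16%, beside 4.10%) with pseudocounts of 0.1 and 5. Against the replete maximum the count was 2 (2.33%, beside 4.93%). The median at 75 mM, 0.35, became 0.21 with a pseudocount of 5 and against the replete maximum, 0.16 with median-ratio scaling and 0.13 with equal totals. At least 2-fold below the control at 75 mM was 1 member, and 3, 0, 2 and 2 with pseudocounts of 0.1 and 5, median-ratio scaling and equal totals. Of all families 2.95% were, and 5.11%, 0.978%, 4.60% and 5.10% in the same settings. At 150 mM the count below the control was 1 (7.03% of all families), and 0 with a pseudocount of 5 (3.98% of all families). The cause of these changes was not tested. No paired analysis was possible because each condition has 1 library.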
